A study of Homo sapiens with 6 samples.

Results

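The urokinase plasminogen activator system, the membrane-anchored matrix metalloproteases and the tissue inhibitors of metalloproteases (TIMPs) were followed as 9 genes, taken by symbol: PLAU, PLAT, PLAUR, SERPINE2, MMP14, MMP15, TIMP1, TIMP2 and TIMP3. Each symbol matched 1 row of a table of raw read counts that held 57445 genes. Of the 9, 8 passed a filter on low counts and were among the 17129 genes tested, and TIMP3 did not pass it. RNA sequencing had been done on H358, an established human non-small cell lung cancer line, in 3 groups of 2 libraries. Clones C1 and C2 carry the labelled genotype BRMS1v2 A273V/A273V, where BRMS1 is a metastasis suppressor gene, and the reference is parental H358 labelled BRMS1 wild type (WT). All 3 groups were grown in RPMI medium with fetal bovine serum, and the labels list no treatment. The labels give neither how the clones were made nor whether the 2 libraries of a group came from separate cultures. The p-values below therefore measure the spread between these libraries, which may be technical, and each clone is a single line.

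Plasminogen activators cut plasminogen, a circulating zymogen, into plasmin, a protease with broad activity on fibrin and matrix proteins. PLAU encodes the urokinase-type activator, which acts at the cell surface bound to its receptor, the product of PLAUR, while PLAT encodes the tissue-type activator. SERPINE2 encodes protease nexin-1, a secreted serpin that inhibits both activators and thrombin. MMP14 and MMP15 encode transmembrane metalloproteases (MT1-MMP and MT2-MMP) that cut matrix at the cell surface and can activate the secreted gelatinase MMP2. The TIMPs bind metalloproteases and block them, and TIMP2 also takes part in the activation of MMP2 by MMP14.

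The libraries held between 27527867 and 37146270 reads counted in genes. The first principal component held 47.6% of the variance and split replicate 1 from replicate 2, and the second, 32.7%, split the clones from WT. Same-numbered libraries deviated from their group means together, so the difference between the mean of the clones and WT is given for each member with and without the replicate number as a block in edgeR. Differences of a single clone and of genes outside the members are from the blocked fit unless stated. Its p-values measure only the spread left after the difference shared by same-numbered libraries is removed. The blocked fit has 2 residual degrees of freedom per gene, against 3 without the block. BRMS1 itself had 951 and 899 counts in C1 and 815 and 813 in C2, against 1341 and 1030 in WT; these gene-level counts do not check the allele. All 7 epithelial markers reached 1 CPM, a read count scaled to the effective size of its library, in both libraries of every group. Of 3 endothelial markers, KDR and CDH5 were called higher in the mean of the clones with the block and 0 without it. VWF was not called, at 0.65 and 1.37 CPM in C1 and 0.948 and 1.14 CPM in C2, against 1.02 and 2.19 CPM in WT. The 3 summed to 18.0 and 42.2 CPM in C1 and 16.2 and 26.1 CPM in C2, against 9.53 and 21.2 CPM in WT. KDR made up most of each sum. With the block, 1 of 7 epithelial markers was also called higher and 1 of 3 tested fibroblast markers lower in that mean. Of all tested genes, 4.12% were called higher and 5.63% lower there. Fibroblast markers (8 genes) summed to 39.5 to 71.0 CPM in the clones, nearly all of it COL1A1 and LUM and with THY1 at 0, against 49.8 and 62.1 CPM in WT, and leukocyte markers (6 genes) to between 1.37 and 1.79 CPM over all libraries. Summed proliferation markers (12 genes) were at 333, 876 and 969 CPM in replicate 2 of C1, C2 and WT, against 2350, 2730 and 2350 CPM in replicate 1. With the block, the median log2 difference of the proliferation markers from WT was −0.79 in C1 and −0.01 in C2. The part of the endothelial markers, of the replicate split and of this lower level in C1 in the values below was not tested. In these bulk libraries, fewer cells expressing a gene and less of its RNA per cell cannot be told apart.

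The series is titled for c-fos, a subunit of the AP-1 transcription factor, and the sequence upstream of the start is shown for the receptor gene, whose window holds an AP-1 motif, and for the 3 members whose clone libraries all lay above both WT libraries. The sequences are from RefSeq on GRCh38.p14, 250 bases ending just before an annotated start, 5′ to 3′ on the gene's strand. Capitals mark the AP-1 motif TGANTCA, searched on both strands, where it reads as its own reverse complement.
PLAU, chr10:73910882-73911131, plus strand: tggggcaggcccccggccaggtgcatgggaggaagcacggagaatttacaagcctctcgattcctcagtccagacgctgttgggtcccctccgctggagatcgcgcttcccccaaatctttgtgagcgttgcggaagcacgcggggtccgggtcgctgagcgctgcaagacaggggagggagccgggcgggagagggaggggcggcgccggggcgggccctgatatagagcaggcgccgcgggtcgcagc
PLAUR, chr19:43670170-43670419, minus strand: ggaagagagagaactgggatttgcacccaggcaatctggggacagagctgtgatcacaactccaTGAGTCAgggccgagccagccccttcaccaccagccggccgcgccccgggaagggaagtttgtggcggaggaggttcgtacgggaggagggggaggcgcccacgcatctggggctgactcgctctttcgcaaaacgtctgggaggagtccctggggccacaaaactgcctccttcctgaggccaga
MMP14, chr14:22836335-22836584, plus strand: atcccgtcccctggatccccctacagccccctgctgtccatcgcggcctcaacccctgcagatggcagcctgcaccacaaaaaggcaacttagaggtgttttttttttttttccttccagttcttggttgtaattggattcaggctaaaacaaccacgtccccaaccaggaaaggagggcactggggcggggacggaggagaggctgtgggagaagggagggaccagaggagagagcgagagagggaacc
TIMP1, chrX:47582186-47582435, plus strand: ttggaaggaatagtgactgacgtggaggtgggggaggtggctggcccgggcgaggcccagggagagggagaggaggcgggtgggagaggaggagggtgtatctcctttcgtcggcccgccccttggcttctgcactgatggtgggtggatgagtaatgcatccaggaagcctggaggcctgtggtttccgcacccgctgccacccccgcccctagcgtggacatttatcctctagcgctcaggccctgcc
PLAU has a second annotated start, whose window is not printed. Windows of 7 of the 9 members were matched and searched, and those of PLAT and TIMP2 were not used here. Among the 7, the motif stood in PLAUR alone, as 1 match whose first base lies 186 bases upstream of the start. Over all 35116 promoter windows of the same length, 6.57% held it. A match is a string of letters, and nothing follows from its presence or its absence for the factor.

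Per kilobase of exon, PLAU was the most abundant member by a wide margin. Its mean over the 6 libraries was 474 CPM per kilobase, and by CPM it ranked 39 among the 17129 tested genes. TIMP2 followed at 91.0 CPM per kilobase, then TIMP1 at 53.4, PLAT at 20.2, SERPINE2 at 13.1, PLAUR at 11.2, MMP15 at 8.11 and MMP14 at 2.43. The lengths are those of all exons joined; with the longest transcript instead, PLAUR and SERPINE2 changed places, at 31.0 and 19.4 CPM per kilobase. The lowest PLAU library, WT replicate 1 at 269, lay above the highest TIMP2 library, C1 replicate 2 at 148 CPM per kilobase. TIMP2 and TIMP1 overlapped, with TIMP2 between 52.6 and 148 and TIMP1 between 41.8 and 64.1 CPM per kilobase. The lowest TIMP1 library, at 41.8, lay above the highest PLAT library, at 24.9 CPM per kilobase. PLAT, SERPINE2 and PLAUR each overlapped the next in the order, while the highest MMP14 library, at 3.83, lay below the lowest MMP15 library, at 5.38 CPM per kilobase.

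**Figure D1:**
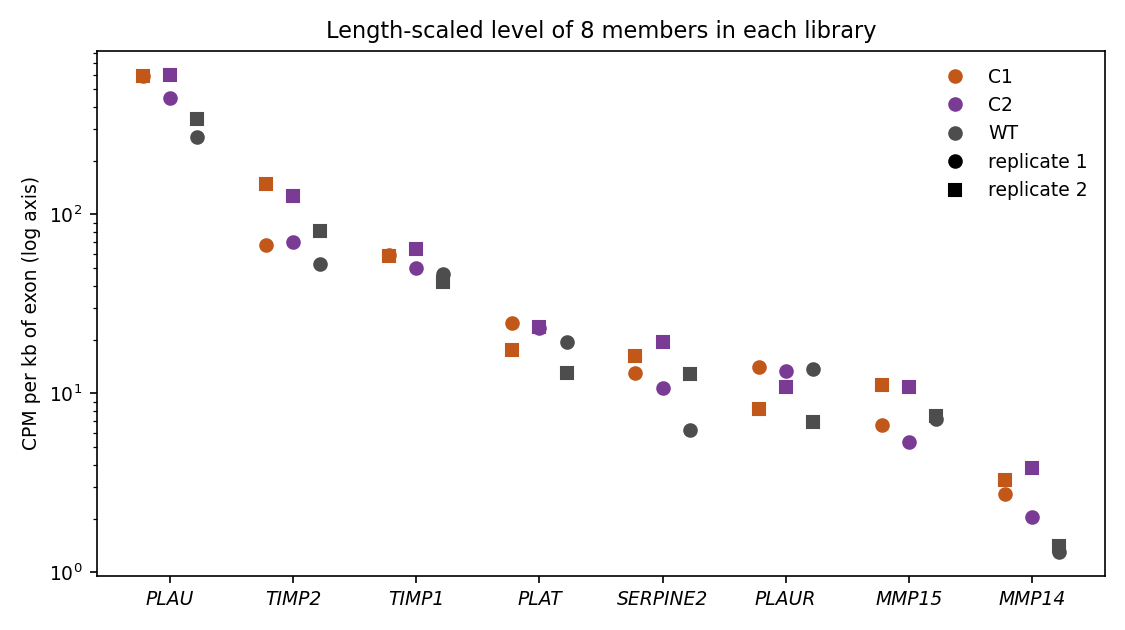
Level of each detected member in CPM per kilobase of exon (log axis), with circles for replicate 1 and squares for replicate 2 in C1, C2 and WT. PLAU stands above all others in every library, and MMP14 is lowest, from 1.30 to 3.83 CPM per kilobase; TIMP3 is not drawn.

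TIMP3, the matrix-bound inhibitor of metalloproteases and ADAMs, was close to absent from the counts. It had 0 and 1 counts in C1, 1 and 0 counts in C2, and 0 counts in both WT libraries. A count of 0 allows up to 0.0848 to 0.105 CPM, depending on the library, by counting error alone. No fold is given for it, since every group was at or under that limit.

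PLAU was higher in both clones than in WT, by about 1.8-fold on average, and this gene carried the most reads of the 9. Its level was 1751 and 1741 CPM in C1 and 1313 and 1783 CPM in C2, against 795 and 1003 CPM in WT. All 4 clone libraries lay above both WT libraries. The C1 mean was 1746 ± 7.07 and the C2 mean 1548 ± 332, against 899 ± 147 CPM in WT (SD, n = 2 each). Without the block the log2 difference was 0.87 ± 0.21 (SE) for the mean of both clones, with an edgeR adjusted p of 0.252, which did not pass 0.05; over 9 alternatives without the block it ranged from 0.0117 to 0.818. With the block the difference was 0.88 ± 0.14, a fold of 1.83 (95% interval of the log2 difference 0.58 to 1.17), and the edgeR adjusted p was 0.00129. Over 9 settings with the block the adjusted p ranged from 2.54e-10 to 0.0708; the highest, which lost the call, was that without C2 replicate 2. By clone, the blocked log2 differences were 0.97 in C1 and 0.78 in C2, with edgeR adjusted p of 0.00197 and 0.0101 (0.361 and 0.618 without the block); without C2 replicate 1 these became 0.053 and 0.227, and without C2 replicate 2 that of C2 became 0.51. C10orf55 lies on the opposite strand of the PLAU locus and had between 120 and 321 counts per library, against at least 24861 for PLAU, and the strand setting of the counting is not given in the sources used here.

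PLAT, the tissue-type activator, did not pass the test with or without the block. It had 165 and 116 CPM in C1 and 154 and 156 CPM in C2, against 128 and 86.2 CPM in WT. Both C2 libraries lay above both WT libraries, while C1 replicate 2 lay between the WT libraries. The log2 difference for the mean of the clones was 0.46 ± 0.24 without the block and 0.48 ± 0.15 with it, and the edgeR adjusted p with the block was 0.0557, with a range of 0.00838 to 0.321 over its alternatives. On the per-kilobase scale, PLAU exceeded PLAT by 23.9 and 33.7 times in C1 and 19.1 and 25.7 times in C2, against 13.98 and 26.1 times in WT, so the groups overlapped in that ratio. With the longest transcript as the length these ratios lay between 8.12 and 19.6.

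PLAUR, the urokinase receptor, did not pass the test between clones and WT, and its libraries fell into levels by replicate number. Its level was 62.5 and 36.3 CPM in C1 and 59.8 and 48.5 CPM in C2, against 61.2 and 31.0 CPM in WT. The 3 replicate 1 libraries lay within 59.8 to 62.5 CPM whatever their group. The log2 difference between the mean of the clones and WT was 0.17 ± 0.35 without the block and 0.21 ± 0.16 with it (95% interval −0.13 to 0.56), and the edgeR adjusted p was 0.457 with the block, with a range of 0.14 to 0.987 over its alternatives. A fold of 1.47 still lies inside that interval. PLAU exceeded its receptor per kilobase by 42.3 and 72.5 times in C1 and by 33.2 and 55.6 times in C2, against 19.6 and 48.9 times in WT. Within each replicate number both clones had the higher ratio, but C1 replicate 1 and C2 replicate 1 lay below WT replicate 2. The size of this ratio depends on the length used: with the longest transcript it was 17.0 and 29.1 in C1 and 13.3 and 22.3 in C2, against 7.87 and 19.6 in WT.

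SERPINE2, the serpin that inhibits both activators, was higher in the clones with the block only. It had 116 and 144 CPM in C1 and 95.6 and 173 CPM in C2, against 55.2 and 114 CPM in WT. Both C1 libraries lay above both WT libraries, the nearest pair being 116 and 114 CPM, and C2 replicate 1 lay below WT replicate 2. The unblocked log2 difference for the mean of the clones was 0.64 ± 0.37, with an edgeR adjusted p of 0.664. With the block it was 0.70 ± 0.16, a fold of 1.62 (95% interval 1.28 to 2.06), with an edgeR adjusted p of 0.0167 and a range of 1.18e-05 to 0.215 over its alternatives. Without the block, the value depended on single libraries, from 0.22 without WT replicate 1 to 1.26 without WT replicate 2. The blocked call was lost without C2 replicate 1 (0.139), C2 replicate 2 (0.215) or WT replicate 1 (0.0891). By clone the blocked log2 differences were 0.71 in C1 and 0.69 in C2, with edgeR adjusted p of 0.0337 and 0.0493 (0.831 and 0.882 without the block), and both calls were lost without those same libraries; the C1 call was also lost without C1 replicate 1, and the C2 call under median-of-ratios scaling with the block, at 0.0506. Set against the WT library of the same number, the log2 differences in replicate 2 were 0.34 for C1 and 0.60 for C2, against 1.07 and 0.79 in replicate 1.

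**Figure D2:**
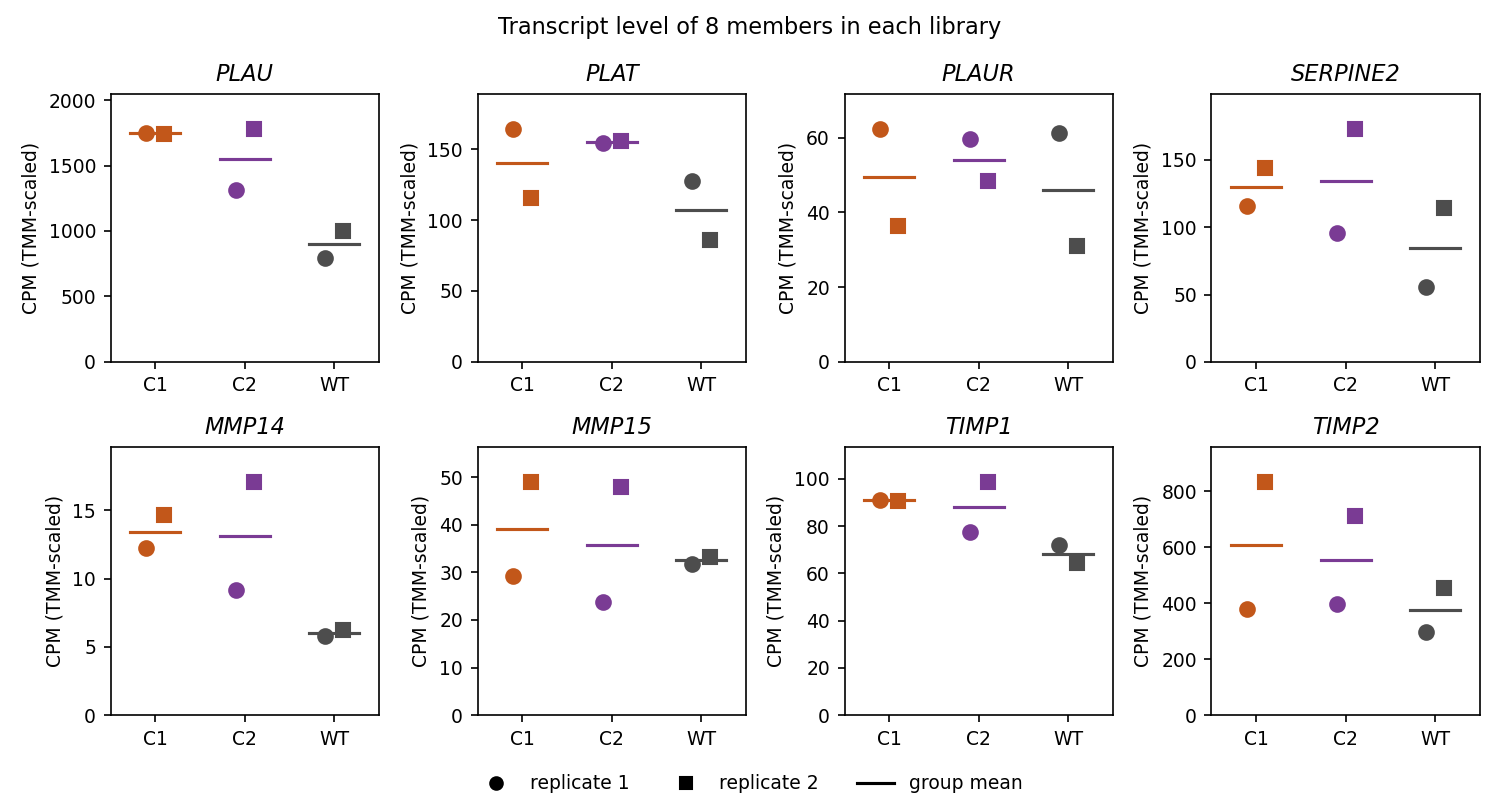
CPM of the 8 tested members in every library, 1 panel per gene on its own axis that starts at 0, with circles for replicate 1, squares for replicate 2 and lines for the group means of C1, C2 and WT. PLAU, MMP14 and TIMP1 have all 4 clone libraries above both WT libraries, while PLAUR, MMP15 and TIMP2 overlap between groups.

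MMP14, the membrane metalloprotease MT1-MMP, was about 2.2-fold higher in the mean of the clones. Its level was 12.2 and 14.7 CPM in C1 and 9.12 and 17.1 CPM in C2, against 5.82 and 6.26 CPM in WT. All 4 clone libraries lay above both WT libraries, on counts of 432, 439, 260 and 552 in the clones, against 182 and 186 in WT. The unblocked log2 difference for the mean of the clones was 1.14 ± 0.32, with an edgeR adjusted p of 0.338 and a range of 0.0464 to 0.83 over its alternatives. With the block the difference was 1.10 ± 0.22, a fold of 2.15 (95% interval of the log2 difference 0.62 to 1.59), with an edgeR adjusted p of 0.00785 and a range of 1.63e-05 to 0.144. The blocked call was lost without C2 replicate 1 (0.0676) or C2 replicate 2 (0.144). By clone the blocked log2 differences were 1.14 in C1 and 1.07 in C2, with edgeR adjusted p of 0.0147 and 0.0287 (0.509 and 0.623 without the block); the C1 call was lost without either C2 library, and the C2 call without either C2 library or WT replicate 2.

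MMP15, the related MT2-MMP, did not pass the test and had mixed directions. It had 29.3 and 49.0 CPM in C1 and 23.8 and 47.8 CPM in C2, against 31.9 and 33.2 CPM in WT. Replicate 1 of both clones lay below both WT libraries and replicate 2 of both clones lay above them. The log2 difference for the mean of the clones was 0.20 ± 0.34 without the block, with an edgeR adjusted p of 0.923. With the block it was 0.12 ± 0.19 (95% interval −0.29 to 0.53), with an edgeR adjusted p of 0.743 and a range of 0.0544 to 0.965 over its alternatives. Per kilobase, MMP15 exceeded MMP14 by 2.42 and 3.38 times in C1 and 2.63 and 2.83 times in C2, against 5.53 and 5.36 times in WT. The clone and WT libraries did not overlap in that ratio, and the ratio itself was not tested.

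TIMP1, a secreted inhibitor of most soluble metalloproteases and a weak inhibitor of MMP14, lay higher in every clone library than in either WT library without passing the test. Its level was 91.1 and 90.5 CPM in C1 and 77.3 and 98.7 CPM in C2, against 71.9 and 64.4 CPM in WT. The log2 difference for the mean of the clones was 0.39 ± 0.17 without the block and 0.39 ± 0.14 with it, and the edgeR adjusted p was 0.519 without the block and 0.11 with it, with a range of 0.0383 to 0.53 over the blocked alternatives. SYN1, on the opposite strand at this locus, had 0 to 3 counts per library.

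TIMP2, the inhibitor that also bridges MMP14 and pro-MMP2, was higher in C1 with the block only. It had 381 and 834 CPM in C1 and 398 and 712 CPM in C2, against 296 and 455 CPM in WT. Both replicate 1 libraries of the clones lay between the WT libraries, and both replicate 2 libraries lay above them. The unblocked log2 difference for the mean of the clones was 0.63 ± 0.41, with an edgeR adjusted p of 0.715. With the block it was 0.58 ± 0.14, a fold of 1.49 (95% interval 1.22 to 1.83), with an edgeR adjusted p of 0.0177 and a range of 0.000111 to 0.198 over its alternatives. Without the block, the C1 difference of 0.69 was 0.03 without C1 replicate 2, and the C2 difference of 0.56 was 0.06 without C2 replicate 2. The blocked call was lost without C2 replicate 1 (0.176), C2 replicate 2 (0.171) or WT replicate 2 (0.198). By clone the blocked log2 differences were 0.62 in C1, with an edgeR adjusted p of 0.0281 (0.825 without the block), and 0.53 in C2, with an edgeR adjusted p of 0.0695 (0.933 without the block); the C1 call was lost without any of those 3 libraries or C1 replicate 2. Among the TIMPs, TIMP2 made up 53.3% and 71.6% of the summed per-kilobase level in C1 and 58.5% and 66.4% in C2, against 53.0% and 65.9% in WT. The protein-coding gene CEP295NL overlaps the TIMP2 locus on the same strand, as do 3 antisense or unclassified genes on the opposite strand; none of these matched a row by symbol, so their counts were not analysed here.

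As a group the 8 tested members all had positive log2 differences from WT in both clones, with and without the block. Both clones were set against the same WT libraries, so agreement between the clones is not independent repetition. The members and the lists were chosen with earlier results of these data known. Every share set beside all tested genes, here and below, is therefore a description and not a test of the set. Their median log2 difference without the block was 0.52 in C1 and 0.55 in C2, beside −0.01 and 0.01 over all tested genes. Without the block, edgeR called 0 of the 8 in C1, in C2 or in their mean, against 0.0117%, 0.0117% and 0.198% of all tested genes in either direction; 2 members, PLAU and MMP14, had an unadjusted p under 0.05 in each, as did 7.87%, 6.75% and 9.79% of all tested genes. DESeq2 called 1 member in C1, 0 in C2 and 2 in the mean, beside 1.58%, 1.22% and 2.29% of all genes. The blocked fit called 4 of 8 higher and 0 lower in C1, beside 2.96% of all tested genes called higher and 4.07% called lower. In C2 the counts were 3 and 0, beside 1.94% and 2.59%. For the mean of both clones, 4 of 8 rose and 0 fell with the block, beside 4.12% of all tested genes called higher and 5.63% called lower. Leaving out C2 replicate 1 or C2 replicate 2 cut the blocked count for the mean to 1 and 0 members, that for C1 to 0 and 1, and that for C2 to 0 each.

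Without any model, 3 of 8 members (PLAU, MMP14 and TIMP1) had all 4 clone libraries above both WT libraries, as did 11.9% of all tested genes. C1 alone lay above WT without overlap for 4 of 8 members, the 3 named and SERPINE2. C2 alone did so for 4 of 8, the 3 named and PLAT. In each case 17.5% of all tested genes also lay above WT without overlap. Within the replicate numbers, all 4 differences between a clone and the WT library of the same number were positive for 6 of 8 members, and so for 22.9% of all tested genes. The exceptions were PLAUR, where C2 replicate 1 was lower by 0.03 on the log2 scale, and MMP15, where both clones were lower in replicate 1, C1 by 0.12 and C2 by 0.42.

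**Figure D3:**
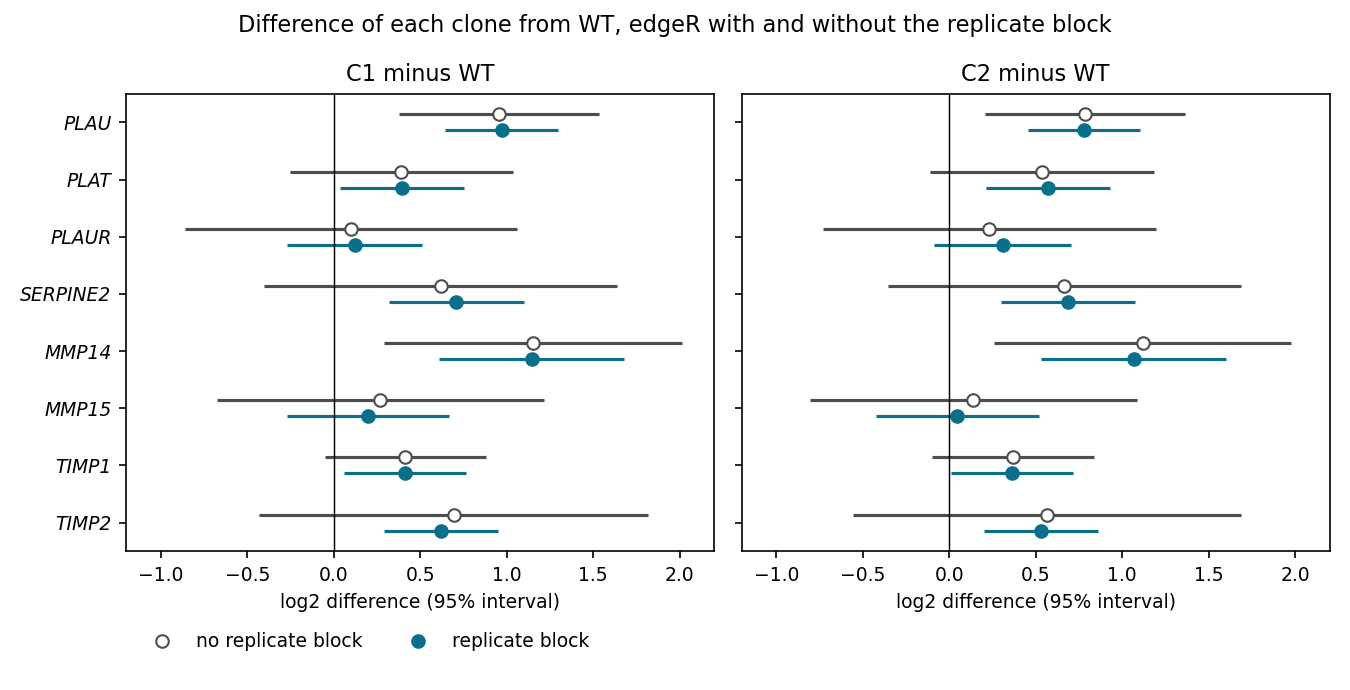
Log2 difference from WT of each tested member in C1 and in C2, from the edgeR fits with and without the replicate number as a block, with 95% intervals (filled circles with the block, open circles without). Every difference is above 0, and with the block those of PLAU, SERPINE2 and MMP14 passed the test in both clones and that of TIMP2 in C1.

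C2 and C1 were not told apart by any member. In edgeR, 0 of 8 members and 0% of tested genes were called between C2 and C1, with and without the block; 0 members had an unadjusted p under 0.05 in either fit, against 61 of all tested genes without the block and 642 with it. The libraries of C2 and C1 overlapped for all 8 tested members, while 7.21% of all tested genes had C2 above C1 with no overlap and 7.41% had it below. The blocked log2 difference C2 minus C1 was −0.19 for PLAU (95% interval −0.52 to 0.13), −0.08 for MMP14 (−0.60 to 0.44), −0.02 for SERPINE2 (−0.41 to 0.37) and −0.09 for TIMP2 (−0.42 to 0.24). For the members that did not pass against WT, the same difference was 0.18 for PLAT (−0.18 to 0.53), 0.19 for PLAUR (−0.21 to 0.58), −0.15 for MMP15 (−0.62 to 0.31) and −0.05 for TIMP1 (−0.40 to 0.30). Without the block the 8 differences lay between −0.17, for PLAU, and 0.15, for PLAT. As a ratio of C2 to C1, the interval ran from 0.66 to 1.36 for MMP14 and from 0.70 to 1.09 for PLAU.

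Several members differed between the replicate numbers. In the blocked fit, SERPINE2, MMP15 and TIMP2 rose in replicate 2, by 0.74, 0.60 and 0.86 on the log2 scale over replicate 1, with edgeR adjusted p of 0.0035, 0.0279 and 0.000368. PLAUR fell by 0.69, with an edgeR adjusted p of 0.00526. These 4 of 8 stand beside 24.7% of all tested genes called in either direction, and leaving out C2 replicate 1 or C2 replicate 2 left 1 and 2 member calls. The largest single contrast was TIMP2 in C1, at 834 CPM in replicate 2 against 381 CPM in replicate 1. PLAU, PLAT, MMP14 and TIMP1 did not pass, at 0.26, −0.35, 0.43 and 0.06 on the log2 scale. All 3 groups had the higher level in replicate 2 for 4 of 8 members (SERPINE2, MMP14, MMP15 and TIMP2) and the lower level there for 1, PLAUR, beside 28.2% and 28.3% of all tested genes. What the replicate number stands for is not given in the labels.

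**Figure D4:**
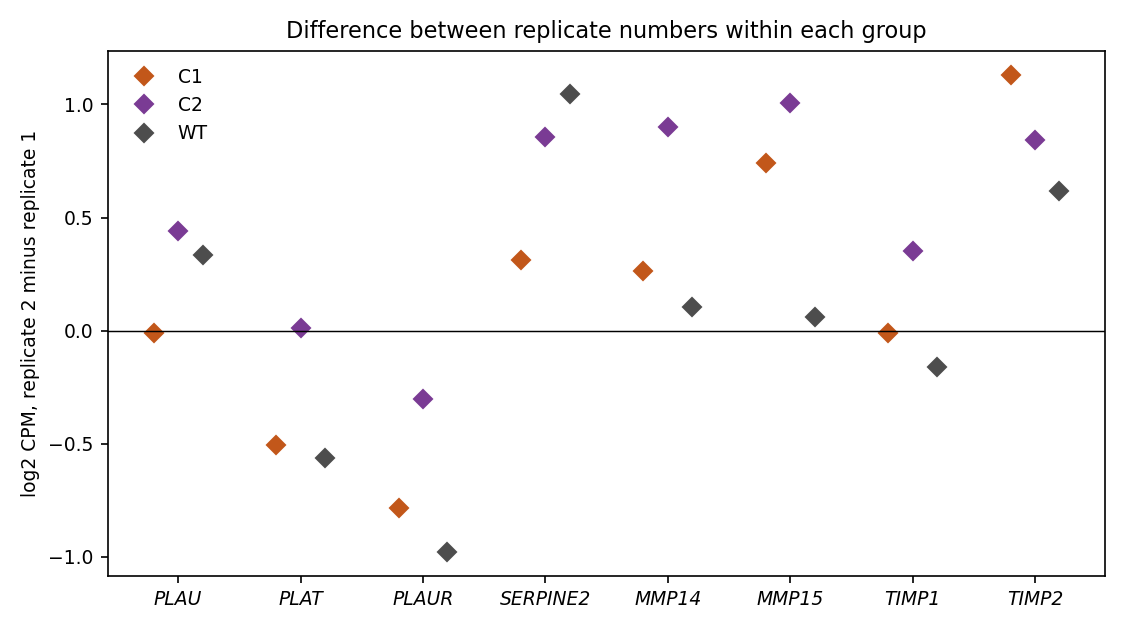
Log2 difference of replicate 2 from replicate 1 for each tested member, within C1, C2 and WT, as points from CPM. TIMP2, SERPINE2, MMP14 and MMP15 lie above 0 in all 3 groups, PLAUR lies below 0 in all 3, and PLAU, PLAT and TIMP1 each lie on both sides of 0.

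Over the 6 libraries the members varied together to different degrees. PLAU and MMP14 had a Pearson r of 0.96 in log2 CPM, MMP14 and TIMP1 of 0.95 and PLAU and TIMP1 of 0.89, while PLAT and PLAUR had 0.84 and PLAUR and TIMP2 −0.59. The points share the 3 groups and the replicate numbers, so these values are descriptions over 6 libraries. Among 10166 genes of mean log2 CPM of at least 3, the most alike by Pearson r over the same libraries were CPQ for PLAU (0.998), GSTK1 for MMP14 (0.996), SUN2 for TIMP1 (0.986) and RDH10 for TIMP2 (0.997). For the others they were PNISR for PLAT (0.998), DPY19L1 for PLAUR (0.992), FBXO32 for SERPINE2 (0.9995) and STK3 for MMP15 (0.997). Between 38 genes, for TIMP1, and 215 genes, for TIMP2, reached an r of 0.95, or 0.374% and 2.11% of those compared. Each gene named here is the highest of 10166 over only 6 libraries, so its r is a description too.

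Further genes of the plasminogen system passed the test in both directions. Of 28 further genes of that system, 20 were tested, and with the block 2 were higher and 2 lower in the mean of the clones, beside 4.12% and 5.63% of all tested genes, with a median log2 difference of −0.02 beside −0.01 over all tested genes; 0 were called without the block. VLDLR, an endocytic receptor for complexes of urokinase with its inhibitors, rose by 0.67 on the log2 scale, with 62.4 ± 7.99 CPM in C1 and 50.8 ± 4.79 CPM in C2, against 35.5 ± 2.27 CPM in WT (SD, n = 2 each). SERPINB6, an intracellular serpin, rose by 0.64. MRC2, a collagen receptor that associates with the urokinase receptor, fell by 3.24, with 7.89 ± 4.52 CPM in C1 and 10.6 ± 7.53 CPM in C2, against 77.2 ± 16.4 CPM in WT. F12, coagulation factor XII, fell by 0.81. By clone with the block, C1 had 2 higher and 1 lower against WT, beside 2.96% and 4.07% of all tested genes. C2 had 1 higher and 1 lower, beside 1.94% and 2.59%. VLDLR was called in C1 only, with an edgeR adjusted p of 0.0112 there and 0.102 in C2. F12 was called in neither clone alone, at 0.083 in C1 and 0.129 in C2. In edgeR with the block, the adjusted p of these 4 ran from 1.72e-05 for MRC2 to 0.0415 for F12. Leaving out C2 replicate 1 or C2 replicate 2 left MRC2 as the only call, and for MRC2 the highest adjusted p over the blocked alternatives was 0.0114. PLG, the plasminogen gene, had at most 1 count in any library, and it was not tested.

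Among the other matrix metalloproteases, those that passed the test were lower in the clones. Of 21 further MMP genes 9 were tested, and with the block 0 were higher and 4 lower in the mean of the clones, beside 4.12% and 5.63% of all tested genes, with a median of −0.51 on the log2 scale; 0 were called without the block. MMP28 (epilysin) fell by 1.31, MMP13 (collagenase-3) by 0.84 and MMP1 (interstitial collagenase) by 0.79 on the log2 scale, with edgeR adjusted p of 0.0158, 0.0386 and 0.0412. MMP16, a further membrane-type enzyme, fell by 0.78 with an edgeR adjusted p of 0.0495 and is named after its value was seen. MMP13 was the most abundant of them, at 50.4 ± 4.34 CPM in C1 and 65.8 ± 31.2 CPM in C2, against 103 ± 22.6 CPM in WT. Its C2 replicate 2, at 87.9 CPM, lay just above WT replicate 1, at 87.2 CPM. MMP28 had 13 and 35 counts in C1 and 11 and 41 in C2, against 31 and 87 in WT. For MMP28 and MMP1, replicate 2 of both clones lay above WT replicate 1 in CPM. In the blocked fit, C1 had 2 of the 9 called against WT, MMP28 and MMP1, and C2 had 0. The edgeR adjusted p of MMP13 was 0.0502 in C1 and 0.172 in C2. For the mean of the clones, 0 of the 4 calls were left without C2 replicate 1, C2 replicate 2 or WT replicate 2, and the range of the adjusted p over the blocked alternatives reached 0.166 for MMP28 and 0.551 for MMP1. MMP2, whose zymogen MMP14 and TIMP2 together activate, had at most 4 counts in any library.

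**Figure D5:**
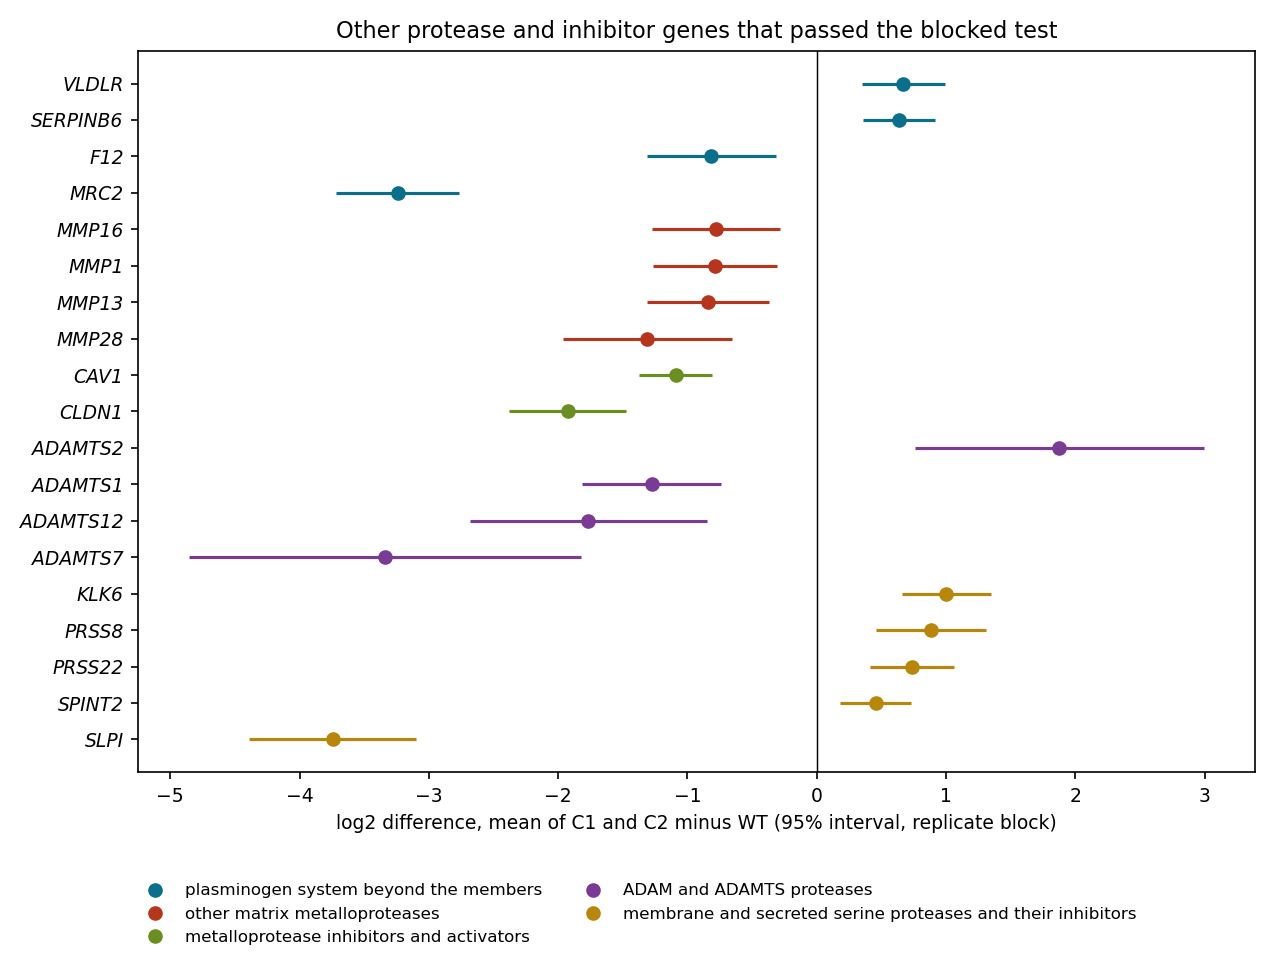
Log2 difference of the mean of C1 and C2 from WT, with the replicate block and 95% intervals, for the genes of 5 related lists that passed an adjusted p of 0.05 (each row a gene, coloured by list). The 4 matrix metalloprotease genes lie below 0, and 4 of the 5 genes among the serine proteases and their inhibitors lie above 0.

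Regulators of metalloproteases outside the TIMP family gave 0 higher and 2 lower among 10 tested of 17 listed, with the block, beside 4.12% and 5.63% of all tested genes. CLDN1, a tight junction claudin that can promote activation of pro-MMP2, fell by 1.92 on the log2 scale, with 15.8 ± 1.23 CPM in C1 and 19.0 ± 0.73 CPM in C2, against 69.2 ± 35.7 CPM in WT. CAV1, the caveolin through which MMP14 can be internalized, fell by 1.09 with the block. It had 159 and 63.7 CPM in C1 and 191 and 61.9 CPM in C2, against 328 and 151 CPM in WT. Replicate 1 of both clones thus lay above WT replicate 2. Between the replicate numbers CAV1 was lower by 1.35 in replicate 2, and its edgeR adjusted p without the block was 0.658. The calls of CLDN1 and CAV1 both held under every blocked alternative. Of 26 ADAM and ADAMTS genes 17 were tested, with 1 higher and 3 lower in the mean of the clones, beside the same shares. By clone with the block, C1 had 1 higher and 3 lower against WT, beside 2.96% and 4.07% of all tested genes. C2 had 0 called, beside 1.94% higher and 2.59% lower. ADAMTS2, a procollagen N-propeptidase, rose by 1.88, on 14 to 32 counts per clone library against 8 and 3 in WT. ADAMTS12 fell by 1.77 and ADAMTS1 by 1.28, and none of the ADAMTS calls was left without C2 replicate 1 or C2 replicate 2. ADAMTS7 had 2 counts in C1 and 3 in C2 in all, against 26 in WT, so that WT exceeded C1 by 13.9 times (95% Poisson interval 3.49 to 121) and C2 by 8.64 times (2.65 to 44.6), from counting error alone.

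Membrane and secreted serine proteases with their inhibitors gave 4 higher and 1 lower among 22 tested of 30 listed, with the block, beside 4.12% and 5.63% of all tested genes. KLK6, a kallikrein-related peptidase, rose by 1.00 on the log2 scale, with 397 ± 63.1 CPM in C1 and 359 ± 27.7 CPM in C2, against 190 ± 40.0 CPM in WT. PRSS8 (prostasin) rose by 0.88 and PRSS22 by 0.73. By clone with the block, PRSS8 was called in C1 only, with an edgeR adjusted p of 0.018 there and 0.0957 in C2. Its C2 replicate 1, at 110 CPM, lay below WT replicate 2, at 121 CPM. SPINT2, the Kunitz-type inhibitor of prostasin and related proteases, rose by 0.45 with an edgeR adjusted p of 0.0404 and is named after its value was seen. It was called in neither clone alone, at 0.0803 in C1 and 0.0984 in C2. SLPI, the secretory leukocyte protease inhibitor, fell by 3.74, on 4 to 20 counts per clone library against 84 and 206 in WT, and its adjusted p was at most 0.0201 over the blocked alternatives. Without C2 replicate 2 it was the only call left of this list, and without C2 replicate 1 the list kept 1 higher and 1 lower. None of the genes in these 3 lists was called without the block. Over the genes named from the 5 lists, the unblocked edgeR adjusted p for the mean of the clones lay between 0.0787, for CLDN1, and 0.75, for MMP1.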

How the data were processed

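Total RNA of 6 H358 libraries had been sequenced. The deposited values are raw read counts per gene, which the authors made with HTSeq 0.5.3 after trimming with cutadapt 1.6 and alignment with STAR 2.5.0a to hg19, per the submitters' processing notes; the annotation release and the strand setting are not given in the sources used here. Rows that name no gene held 21.3% to 22.4% of reads per library and were left out. The 6 libraries held 27527867 to 37146270 gene counts, so that counting error is small for all members but TIMP3; the floor of 3 counts and the intervals on counts cover counting error only.

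All 6 libraries entered 1 quasi-likelihood fit in edgeR 4.0.16 (R 4.3.3; filterByExpr, TMM scaling, robust dispersions), and p-values were Benjamini-Hochberg adjusted over 17129 genes, with a threshold of 0.05. Each clone, and the mean of both, was set against WT, and C2 against C1. Levels are CPM with TMM scaling, also per kilobase of exon. The numbers of the libraries paired them: deviations from group means of same-numbered libraries correlated at 0.70 (C1 with C2), 0.58 (C1 with WT) and 0.63 (C2 with WT). That pairing comes from the data, since the labels do not say what a number marks; the blocked value therefore stands beside each result.

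Alternatives were the replicate block, median-of-ratios scaling, no filter, DESeq2 1.42.0 and leaving out each library; the same with the block were chosen after seeing the data. Scripts were tested on simulated data. The members and the lists were chosen with earlier results of these data known. Outside the members, up to 3 genes per list and direction were named, by the size of the blocked difference among those that passed, and exceptions are stated; 1 further gene of the plasminogen list is not reported here. Promoter windows were matched by symbol to RefSeq (GRCh38.p14); a planned comparison of protein sequences was not run.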

Additional observations from a re-analysis of the deposited data

How the results depend on the processing

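Counts of calls depended on the fit, and the direction of most member differences did not. No replicate block against a block moved the counts against WT: edgeR with the block called 1204, 777 and 1669 genes in C1, in C2 and in their mean against WT, where the fit without the block called 2, 2 and 34, and the members called were 4, 3 and 4 against 0. With no filter on low counts the genes were 296, 209 and 436 and the members 1, 0 and 2; with DESeq2 the genes were 270, 209 and 393 and the members 1, 0 and 2. Combining the block with no filter gave 2074, 1550 and 2598 genes, 90 genes between C2 and C1, and 5 members in C2. The difference of SERPINE2 between C2 and C1 was 0.05 on the log2 scale without the block and −0.02 with it. The cause of these shifts was not tested.

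Leaving out 1 library at a time leaves an arm with a lone library, which is assumed to vary like the others. Without the block the genes called then ranged from 0 to 1 in C1, were 0 in C2, and ranged from 0 to 3 in the mean. With the block they ranged from 178 to 1776 in C1, from 2 to 1756 in C2, from 0 to 343 between C2 and C1 and from 208 to 2277 in the mean, and members called ranged from 0 to 5 in C1, in C2 and in the mean, and from 1 to 5 between replicate numbers. The lowest of these counts against WT, and between replicate numbers, came without a C2 library, and the cause was not tested.

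The log2 differences that changed sign when a library was left out were those of PLAUR and MMP15 against WT and of every tested member between C2 and C1. Without the block PLAUR ranged from −0.33 to 0.68 in C1, from −0.17 to 0.81 in C2 and from −0.24 to 0.74 in the mean, and MMP15 from −0.14 to 0.61, from −0.47 to 0.57 and from −0.10 to 0.42. With the block PLAUR ranged from −0.08 to 0.36 in C1 and from −0.01 to 0.60 in C2, and MMP15 from −0.18 to 0.63 in C1, from −0.35 to 0.47 in C2 and from −0.26 to 0.55 in the mean. Between C2 and C1 the ranges were −0.44 to 0.03 for PLAU, −0.09 to 0.40 for PLAT, −0.21 to 0.55 for PLAUR and −0.47 to 0.41 for SERPINE2. They were −0.59 to 0.35 for MMP14, −0.75 to 0.29 for MMP15, −0.26 to 0.12 for TIMP1 and −0.64 to 0.54 for TIMP2. Against WT the other 6 tested members kept a positive difference under every alternative run, but the size moved: without the block TIMP2 ranged from 0.03 to 1.17 in C1 and from 0.06 to 0.93 in C2, and SERPINE2 from 0.19 to 1.24 and from 0.15 to 1.29. PLAT ranged from 0.13 to 0.71 in C1 and from 0.29 to 0.85 in C2, TIMP1 from 0.34 to 0.50 and from 0.16 to 0.54, PLAU from 0.81 to 1.14 and from 0.52 to 1.00, and MMP14 from 1.02 to 1.29 and from 0.57 to 1.51. Depth limits TIMP3 alone among the members, at 2 counts in all; 2 libraries a group limit the rest.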

Other observations

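The matrix metalloprotease genes outside the member list also differed between the replicate numbers, and these were named after their values were seen. Of the 9 tested, 4 rose and 1 fell in replicate 2 against replicate 1 in the blocked edgeR fit, beside 24.7% of all tested genes called in either direction. MMP7 (matrilysin), an epithelial enzyme, fell by 2.58 on the log2 scale, with an edgeR adjusted p of 8.52e-06. It had 2.10, 3.53 and 3.67 CPM in replicate 2 of C1, C2 and WT, against 18.7, 15.6 and 20.8 CPM in replicate 1. MMP1 rose by 1.59, with 6.78, 12.04 and 19.8 CPM in replicate 2 against 3.02, 4.28 and 4.64 CPM in replicate 1. MMP28 rose by 1.63, MMP11 by 1.97 and MMP9 by 1.07. The summed proliferation markers, at 333 to 969 CPM in replicate 2 against 2350 to 2730 CPM in replicate 1, moved with the same split, and their part in these values was not tested.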
